A study of Homo sapiens with 6 samples.

Results

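AKAP12, protein kinase A (PKA) and the cyclic nucleotide phosphodiesterases are followed here through 10 of the 58735 genes of the count table: the anchoring protein genes AKAP12, AKAP1 and AKAP13, the PKA subunit genes PRKACA, PRKACB, PRKAR1A and PRKAR2B, and the phosphodiesterase genes PDE3A, PDE4B and PDE4D. The set was selected on the normalized counts of AKAP12, that is, chosen because AKAP12 rises after treatment, so these values are given as description, without a test. RNA was sequenced from Meg-01, an established human megakaryoblast line, in 3 libraries of untreated control cells and 3 libraries of cells given 500 µM sodium propionate, a short-chain fatty acid called C3 here. The labels give 48 h for C3, while the methods mention both 24 h and 48 h. In a legend, the libraries within each group are named technical replicates. Every p-value therefore measures only the spread between these libraries, which may be technical, and 1 cell line cannot stand for other megakaryocytes. Library totals were 19318595, 18050689 and 16159449 counts for control replicates 1 to 3 and 16513025, 18652292 and 22821722 counts for C3 replicates 1 to 3. All 10 members passed the filter on low counts, with 127 to 3436 counts per library, so none passed through 1 group alone.

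PKA is held inactive by regulatory subunits that bind its catalytic subunits, and cAMP releases the kinase by binding the regulatory subunits. A-kinase anchoring proteins (AKAPs) tether the regulatory subunits, and so the kinase, to places in the cell, while phosphodiesterases end the signal by breaking down cyclic nucleotides. In platelets, which megakaryocytes shed, a rise in cAMP inhibits activation, and the phosphodiesterases of the PDE3 family limit that rise.

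The comparison asks how transcripts of this pathway differ between C3-treated and control cells. Values are normalized counts, meaning counts scaled with TMM factors (a trimmed mean that sets libraries to a common scale) to the mean effective library size. A gene is called higher or lower when edgeR's quasi-likelihood test gave a Benjamini-Hochberg adjusted p below 0.01 and the fold change was above 1.3. Of 15078 genes tested, 761 (5.05%) were called higher, 222 (1.47%) lower and 983 (6.52%) either way. An adjusted p below 0.05 at any fold was reached by 2981 genes (19.8%), and an unadjusted p below 0.05 by 4847 (32.1%). The groups of libraries did not overlap in 5188 genes (34.4%). Scaled by library size alone, 1025 genes were called higher and 100 lower. The number called lower was 136 without C3 replicate 3 and 347 without C3 replicate 1. Some libraries stood apart on the second principal component, which held 17.4% of the variance. Control replicate 3 had a value of -21.3 there against 12.5 and 10.9 in the other control libraries, and C3 replicate 1 had 13.4 against -10.4 and -5.09. With both of these libraries left out, an alternative chosen after seeing the data, 909 genes were called higher and 412 lower.

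The label of a megakaryoblast line was checked against 9 megakaryocyte markers, of which 7 were tested. Their summed normalized count was 25100, 25440 and 24270 in the control libraries and 25490, 23370 and 24310 in the C3 libraries, and these ranges overlap. ITGA2B, the integrin alpha IIb gene, was the most abundant, while GP1BB and PF4 were at 0 in every library. A further gene on the same strand covers 100% of the exon bases of GP1BB and 52.2% of those of PF4, so their counts of 0 are uncertain. None was called higher by edgeR. ITGB3, the integrin beta 3 gene, had 186, 190 and 175.5 normalized counts in control and 218.5, 232 and 248 in C3 libraries. Each C3 library was above each control library, with a log2 fold change of 0.34 (adjusted p = 0.0325, edgeR), short of both gates, and a further gene on the same strand covers 33.2% of its exon bases. TUBB1, the tubulin of platelets, was called lower, with a log2 fold change of -1.36 (adjusted p = 0.00253, edgeR), and 35.5% of its exon bases overlap a gene of the other strand. Its raw counts were low, 43, 39 and 32 in control and 8, 20 and 23 in C3 libraries. The lowest was that of C3 replicate 1, and no alternatives are given for this gene. Fewer cells expressing a gene and less RNA of it per cell cannot be told apart in such bulk RNA.

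AKAP12 (ENSG00000131016) encodes a scaffold, also known as gravin, that binds PKA, protein kinase C and other signalling proteins near the plasma membrane. Its coordinates on GRCh38 are chr6:151239967-151358559 (forward strand), with 8775 exon bases that no other annotated gene shares. RefSeq promoters (GRCh38.p14) were matched for 10 of 10 members, as 36 windows of 250 bases before a transcription start. Those of AKAP12 are printed because its rise chose the set, and both lie on the forward strand, start 1 at chr6:151239717-151239966 and start 2 at chr6:151325281-151325530. Capitals mark a GC box, GGGCGG or CCGCCC on the other strand.
AKAP12 start 1: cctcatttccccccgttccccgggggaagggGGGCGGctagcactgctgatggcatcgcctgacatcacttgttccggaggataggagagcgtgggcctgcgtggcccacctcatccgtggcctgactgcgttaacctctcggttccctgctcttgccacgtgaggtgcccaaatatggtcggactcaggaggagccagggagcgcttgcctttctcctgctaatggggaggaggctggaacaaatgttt
AKAP12 start 2: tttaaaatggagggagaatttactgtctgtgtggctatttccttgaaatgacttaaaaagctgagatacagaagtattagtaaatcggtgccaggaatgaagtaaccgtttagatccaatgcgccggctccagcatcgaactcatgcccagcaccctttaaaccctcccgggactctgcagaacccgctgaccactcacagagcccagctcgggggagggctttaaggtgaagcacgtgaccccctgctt
The first window holds 1 GC box and 61.2% G and C bases, and the second holds none of the motifs searched and 50%. A window before start 3 holds 2 GC boxes and is not printed, since 20 of its bases are exon bases. The other motifs were the cAMP response element TGACGTCA, its shorter part TGACG or CGTCA, which the full element contains on both strands, and the TATA box TATAAA or TTTATA. Among the members' windows, the full element was in 1 (PRKAR1A), the shorter part in 8, the GC box in 14 and the TATA box in 5. Over all 35116 promoters of the same length, the shares were 1.65%, 21.2%, 42.6% and 10.7% in that order. A match of letters is a description and says nothing of binding.

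AKAP12 had normalized counts of 1008, 996 and 943 in the control libraries and of 1663, 1914 and 2015 in the C3 libraries. Every C3 library lay far above every control library, and the lowest C3 value was that of replicate 1, a library that stood apart. The group means were 982 ± 34.4 and 1864 ± 182 (SD, n = 3 libraries each), a log2 fold change of 0.93 or 1.90-fold. Across all alternatives of the processing the log2 fold change was between 0.86 and 1.00, and it was 0.97 without both libraries that stood apart. As a share of the level of all 22 anchor genes, in normalized counts per kb of exon, AKAP12 made up 2.71%, 2.71% and 2.66% in the control libraries and 4.31%, 4.97% and 5.23% in the C3 libraries. That share was below 3% in each control library and above 4% in each C3 library.

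**Figure D1:**
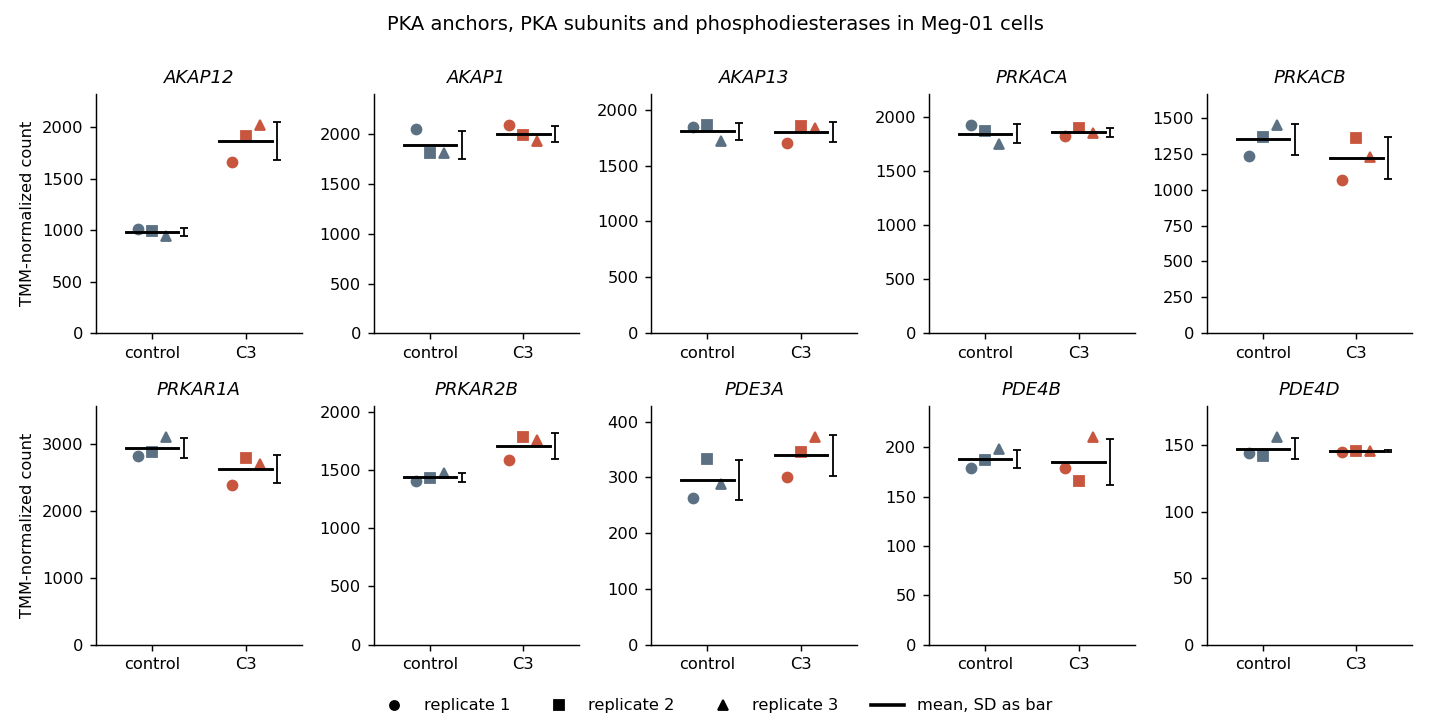
Normalized counts of the 10 members (vertical axes) in the control and C3 groups, with 1 point per library, a line for the group mean and a bar for the SD. The C3 libraries of AKAP12 sit between 1663 and 2015, above control libraries between 943 and 1008, and PRKAR2B has 1580 to 1784 against 1401 to 1472.

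The genes most like AKAP12 were sought among the 11850 tested genes that averaged 50 normalized counts or more, by the root mean square difference of log2 values over the 6 libraries, each centred on its control mean. ARFGEF3 was the closest (0.0625), with 49.0, 46.7 and 43.0 normalized counts in control and 82.0, 86.1 and 88.6 in C3 libraries. OTOGL (0.0654), the Ras-family gene MRAS (0.0746), SAMD4A (0.0931) and the occludin gene OCLN (0.103) followed. Their log2 fold changes were 0.89, 0.92, 0.89, 0.83 and 0.81 in that order, and the C3 libraries lay above the control libraries in each. These genes were picked for that pattern, which is therefore no result about them.

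Of 21 genes whose start lies within 500 kb of that of AKAP12, 4 had enough counts to be tested. None of them was called by edgeR, DESeq2 or limma-voom, and 3 of the 4 had an unadjusted p below 0.05, which 32.1% of all genes tested had. MTHFD1L, a gene of mitochondrial folate metabolism, had 3296, 3204 and 3175 normalized counts in control and 2965, 2735 and 2847 in C3 libraries. Its C3 libraries were all below its control libraries, with a log2 fold change of -0.18 (adjusted p = 0.0386). The zinc finger gene ZBTB2 was likewise lower in each C3 library (-0.16, adjusted p = 0.133). ARMT1 had a log2 fold change of 0.37 (adjusted p = 0.0138) and RMND1 one of -0.026 (adjusted p = 0.868), and the groups of both overlapped. ARMT1 fell short of both gates, with a fold of 1.29 against 1.3. Its groups overlapped only because control replicate 3 (415.5) was above C3 replicate 1 (392.7), both libraries that stood apart. The rise of AKAP12 was thus not shared by a called neighbour in this window, though ARMT1 came close to a call.

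AKAP1 (ENSG00000121057) anchors PKA at the outer membrane of mitochondria. It had 2056, 1811 and 1814 normalized counts in control and 2089, 1995 and 1928 in C3 libraries, with 2.17% of its exon bases over a gene of the other strand. The groups overlapped through control replicate 1, which was above both C3 replicates 2 and 3. For AKAP1, the log2 fold change was 0.08 ± 0.066 (SE, adjusted p = 0.441), with 0.16 without control replicate 1 and 0.02 without both libraries that stood apart. AKAP13 (ENSG00000170776), another PKA anchor, had 1843, 1858 and 1719 normalized counts in control and 1697, 1857 and 1839 in C3 libraries. Its groups lay over each other, and control replicate 3 and C3 replicate 1, the libraries that stood apart, had the lowest values of their groups. The log2 fold change of -0.0068 ± 0.064 (SE, adjusted p = 0.956) became 0.07 with library size alone, and 9.28% of its exon bases overlap genes of the other strand. In the list of 22 PKA anchors, 18 genes other than AKAP12 were tested and 0 were called by edgeR, DESeq2 or limma-voom, with 6 (33.3%) at an unadjusted p below 0.05 beside 32.1% of all genes. Their median log2 fold change was 0.12, against 0.0021 over all genes tested, with 13 positive and 5 negative values between -0.28 and 0.75. The highest level per kb of exon in the list was that of RAB32, a small GTPase that binds PKA, at 1500 in control and 1447 in C3 libraries (log2 fold change -0.052, adjusted p = 0.621).

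The catalytic subunits carry the kinase activity. PRKACA (ENSG00000072062) had 1925, 1870 and 1753 normalized counts in control and 1828, 1903 and 1852 in C3 libraries. All C3 values lay inside the range of the control values. For PRKACA, the log2 fold change was 0.0086 ± 0.063 (SE, adjusted p = 0.943), and -0.016 without both libraries that stood apart, and 2.09% of the exon bases overlap another gene of the same strand. PRKACB (ENSG00000142875) had 1236, 1368 and 1447 in control and 1070, 1360 and 1226 in C3 libraries. C3 replicate 1 was the lowest of the 6 and control replicate 3 the highest, and the groups overlapped. Its log2 fold change was -0.14 ± 0.078 (SE, adjusted p = 0.209), and -0.01 without those libraries. With each library left out it was between -0.23 (without C3 replicate 2) and -0.06 (without C3 replicate 1). Of 4 catalytic genes with PRKX and PRKACG, 3 were tested and 0 were called by edgeR, DESeq2 or limma-voom, with 0 at an unadjusted p below 0.05 and a median log2 fold change of 0.0086. PRKACG was at 0 in every library, which allows up to 3 counts per library. As shares of the summed level per kb of exon, PRKACA held 44.8% in control and 46.1% in C3 libraries, PRKACB 35.0% and 32.2%, and PRKX 20.2% and 21.7%, each with overlapping groups.

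The regulatory subunits bind cAMP, with RI forms from PRKAR1A and PRKAR1B and RII forms, which most AKAPs prefer, from PRKAR2A and PRKAR2B. PRKAR2B (ENSG00000005249) spans chr7:107044705-107161811 (forward strand) and encodes the RII beta form. It had 1401, 1428 and 1472 normalized counts in control and 1580, 1784 and 1758 in C3 libraries. Each C3 library was above each control library. The means were 1434 ± 36.01 and 1707 ± 111 (SD, n = 3), with a log2 fold change of 0.25 ± 0.066 (SE, fold 1.19) and an adjusted p of 0.00706 from edgeR. The p passed its gate and the fold did not, so PRKAR2B was not called. With each library left out, the adjusted p was above the gate of 0.01 in 5 of 6 fits (0.0325, 0.0423 and 0.0101 without control replicates 1, 2 and 3, and 0.0418 and 0.0553 without C3 replicates 2 and 3) and was 5.7e-04 without C3 replicate 1. Over all alternatives, the log2 fold change was between 0.22 and 0.33 and the adjusted p between 9.4e-07 and 0.0553. PRKAR1A (ENSG00000108946), the RI alpha gene, had 2824, 2879 and 3107 in control and 2382, 2788 and 2695 in C3 libraries. Its C3 libraries all lay below its control libraries, C3 replicate 1 by the most. The log2 fold change was -0.16 ± 0.067 (SE, adjusted p = 0.092), and -0.06 without both libraries that stood apart, and 4.34% of its exon bases overlap another gene of the same strand.

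PRKAR1B (ENSG00000188191), the RI beta gene, spans chr7:549197-727650 (reverse strand) and is not among the members. Its normalized counts were 378, 373 and 350 in control and 231, 204 and 223.5 in C3 libraries. No C3 library came near the lowest control library. PRKAR1B fell from 367 ± 15.1 to 219.5 ± 14.04 (SD, n = 3), a log2 fold change of -0.74 ± 0.10 (SE, adjusted p = 6.9e-06, edgeR), and it was called lower in 15 of 15 alternative settings (-0.81 to -0.67). Genes of the other strand overlap 7.72% of its exon bases, so part of its counts is uncertain. The promoter of PRKAR2B (chr7:107044455-107044704, forward strand) and the first of 6 of PRKAR1B (chr7:727677-727926, reverse strand) are printed as those of the regulatory genes with the highest and the lowest log2 fold change, of which PRKAR1B was called and PRKAR2B was not. Capitals again mark GC boxes, and both sequences read along the strand of their gene.
PRKAR2B start 1: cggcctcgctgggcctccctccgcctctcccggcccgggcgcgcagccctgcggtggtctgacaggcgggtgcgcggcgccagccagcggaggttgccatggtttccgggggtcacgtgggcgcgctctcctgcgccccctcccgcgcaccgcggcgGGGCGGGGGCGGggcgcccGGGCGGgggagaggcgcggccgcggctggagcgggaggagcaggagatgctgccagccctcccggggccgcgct
PRKAR1B start 1: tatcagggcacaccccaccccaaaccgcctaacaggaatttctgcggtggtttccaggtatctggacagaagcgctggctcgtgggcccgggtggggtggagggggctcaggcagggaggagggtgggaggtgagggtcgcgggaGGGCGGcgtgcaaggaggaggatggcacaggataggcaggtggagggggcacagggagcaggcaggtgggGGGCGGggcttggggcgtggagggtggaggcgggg
The PRKAR2B window holds 3 GC boxes and 81.6% G and C bases, and the PRKAR1B window 2 GC boxes and 69.2%. Neither of these windows holds the cAMP response element or its shorter part, and among the other PRKAR1B windows that before start 5 holds the shorter part.

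RII genes made up 46.1%, 46.5% and 46.8% of the summed regulatory subunit level, in normalized counts per kb of exon, in the control libraries and 53.3%, 53.0% and 53.2% in the C3 libraries. The libraries of a group lay within 1 percentage point of each other, and the groups were well apart. The difference of 6.71 between group means had an exact two-sided permutation p of 0.1, the smallest possible with 3 libraries a group. It was 6.01 from raw counts and 6.52 to 6.86 with each library left out. By subunit, the mean share of PRKAR2B was 19.9% in control and 25.2% in C3 libraries, that of PRKAR1B 12.9% and 8.20%, that of PRKAR1A 40.7% and 38.6% and that of PRKAR2A 26.6% and 27.97%. Of the 4 regulatory genes, all tested, 0 were called higher and 1 lower by edgeR, and DESeq2 and limma-voom also called 1 (25% by edgeR, beside 6.52% of all genes). At an unadjusted p below 0.05 there were 3 (75% beside 32.1%), in a list too small to set against all genes. Their median log2 fold change was -0.088. The log2 ratio of the summed regulatory to the summed catalytic level was 0.025 ± 0.047 in control and -0.035 ± 0.036 in C3 libraries (SD, n = 3). Those groups overlapped, with a difference of -0.059 and an exact two-sided permutation p of 0.3. That difference was -0.079 (without C3 replicate 3) to -0.032 (without control replicate 3) with each library left out, and -0.019 from raw counts. The RII share thus differed by many times its spread between libraries, while the difference in the ratio was above the SD of either group or below it, depending on these choices.

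**Figure D2:**
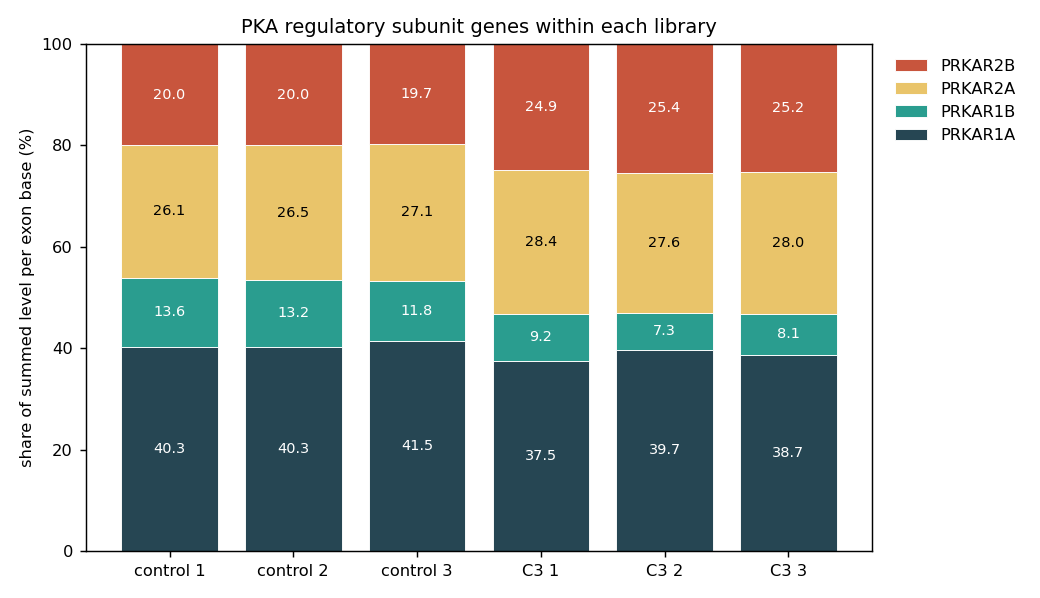
Share of the summed PKA regulatory subunit level (vertical axis, percent of normalized counts per kb of exon) for each regulatory gene, stacked by library. PRKAR2B takes 19.7% to 20% in the control libraries and 24.9% to 25.4% in the C3 libraries, and PRKAR1B 11.8% to 13.6% and 7.33% to 9.19%.

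Heat-stable inhibitor peptides that block the catalytic subunits come from PKIA, PKIB and PKIG. All 3 were tested and 0 were called by edgeR, DESeq2 or limma-voom, with 0 at an unadjusted p below 0.05 and a median log2 fold change of -0.040, which is 0.03 with library size alone. PKIG had the highest level per kb of exon, 184 in control and 206 in C3 libraries (log2 fold change 0.16, adjusted p = 0.200, and 0.09 without control replicate 3), and 34.6% of its exon bases overlap genes of the other strand.

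Among the phosphodiesterases, PDE3A (ENSG00000172572) breaks down cAMP and is inhibited by cGMP. It had 262.5, 334 and 289 normalized counts in control and 300.5, 345.5 and 373 in C3 libraries. The groups overlapped, since control replicate 2 was above C3 replicate 1. For PDE3A, the log2 fold change was 0.21 ± 0.107 (SE, adjusted p = 0.175), with a range of 0.13 to 0.31 with each library left out, and 3.04% of the exon bases overlap genes of the other strand. PDE4B (ENSG00000184588) is specific for cAMP and had 179, 188 and 198 in control and 179, 166 and 211 in C3 libraries. C3 replicates 2 and 3 were the lowest and the highest of the 6, so the C3 range spans the control range. Its log2 fold change of -0.016 ± 0.12 (SE, adjusted p = 0.946) was 0.06 with library size alone. PDE4D (ENSG00000113448), of the same family, had 144, 142 and 156 in control and 144.5, 145.5 and 145.9 in C3 libraries. The C3 values all lay within the control range. The log2 fold change of -0.019 ± 0.13 (SE, adjusted p = 0.939) was 0.06 with library size alone, and 1.39% of its exon bases overlap genes of the other strand.

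PDE9A (ENSG00000160191), an enzyme specific for cGMP, was the only called gene among 18 tested of 24 phosphodiesterase genes, by edgeR (5.56% beside 6.52% of all genes). It spans chr21:42653621-42775509 (forward strand) and shares no exon bases. Its normalized counts were 439, 429.5 and 485 in control and 877.5, 770 and 830.5 in C3 libraries. The C3 libraries were all far above the control libraries. PDE9A rose from 451 ± 29.6 to 826 ± 53.7 (SD, n = 3), a log2 fold change of 0.87 ± 0.080 (SE, adjusted p = 1.6e-08, edgeR) or 1.83-fold, and it was called in 15 of 15 settings (0.83 to 0.95). DESeq2 and limma-voom each called 1 gene of this list, and 7 genes (38.9%) had an unadjusted p below 0.05, beside 32.1% of all genes. Among these 7 is PDE2A, with raw counts of 6, 3 and 6 in control and 16, 12 and 15 in C3 libraries. PDE2A passed the count filter only through the C3 group, where it is high, so its p is given no weight. In the list, the median log2 fold change was 0.12. PDE4A, with the highest level per kb of exon at 289 in control and 325 in C3 libraries, had a log2 fold change of 0.17 (adjusted p = 0.0903), which was 0.10 without control replicate 3 and 0.06 without both libraries that stood apart.

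As a share of the summed phosphodiesterase level per kb of exon, PDE9A took 10.3%, 10.6% and 12.3% in the control libraries and 18.5%, 16.8% and 18.5% in the C3 libraries. Its share was higher in each C3 library than in any control library. The PDE4 family took 41.9%, 42.7% and 39.6% in control and 41.6%, 40.7% and 39.6% in C3 libraries. These groups overlapped, with a difference of -0.766 and an exact two-sided permutation p of 0.5, where the smallest possible is 0.1. The difference was -0.135 without control replicate 2, -1.66 without control replicate 3 and -0.122 from raw counts. Enzymes specific for cGMP together held 27.9% in control and 32.8% in C3 libraries, those specific for cAMP 57.0% and 53.6%, and those that break down both 15.2% and 13.6%. PDE6D, PDE6G and PDE6H are not catalytic subunits, and without them, an alternative chosen after seeing the data, the share specific for cGMP was 14.6% and 22.0% and the PDE4 difference -1.85 (exact p = 0.3). Among the members, PDE3A held 2.89% and 2.93%, PDE4B 2.74% and 2.38%, and PDE4D 1.18% and 1.02% of the level in control and C3 libraries.

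**Figure D3:**
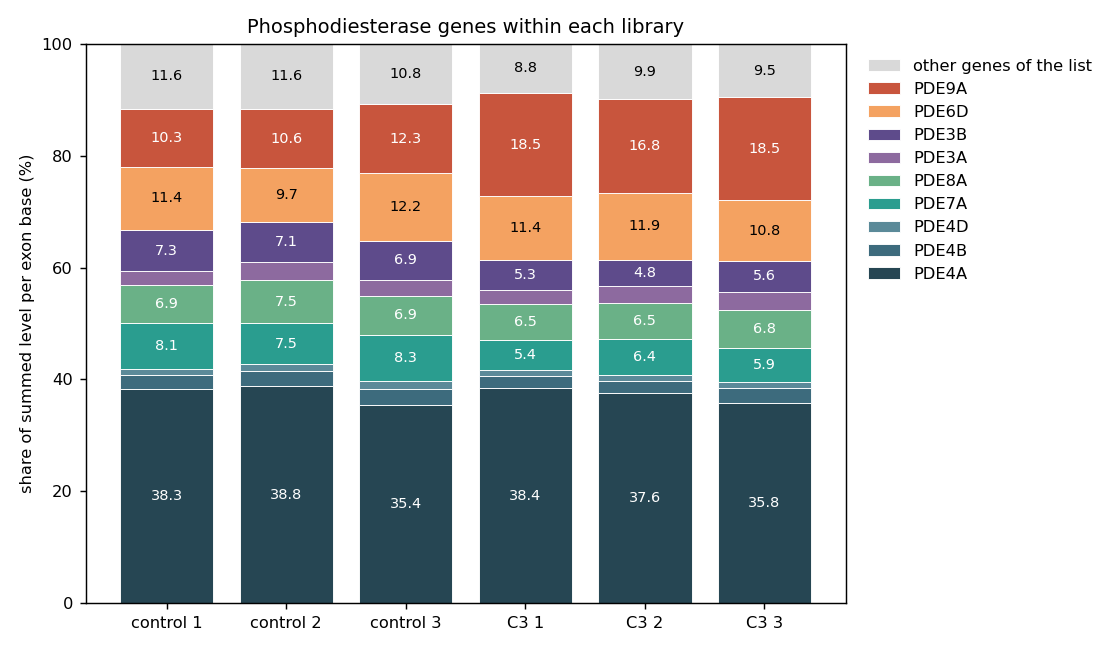
Share of the summed phosphodiesterase level (vertical axis, percent of normalized counts per kb of exon) by gene, stacked by library. PDE4A is the largest share throughout, at 35.4% to 38.8%, and PDE9A goes from 10.3% to 12.3% in control to 16.8% to 18.5% in C3 libraries.

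By level per kb of exon in control libraries, the 10 members were ordered AKAP1 (355 ± 26.4), PRKACA (252 ± 11.99), PRKAR1A (233 ± 11.9), PRKACB (197 ± 15.6), PRKAR2B (114 ± 2.86), AKAP12 (112 ± 3.92), AKAP13 (89.1 ± 3.74), PDE3A (22.2 ± 2.72), PDE4B (21.1 ± 1.06) and PDE4D (9.04 ± 0.477). The libraries of PRKACA and PRKAR1A, of PRKAR2B and AKAP12, and of PDE3A and PDE4B overlapped, so the order within these pairs is not fixed. The order between genes also depends on the annotated exon lengths. By normalized count in control libraries, PRKAR1A (2937) was above AKAP1 (1894) and PRKACA (1849). In C3 libraries AKAP12, at 212 ± 20.7 per kb, had rank 3, against rank 6 in control, between PRKACA (254 ± 5.20) and PRKAR1A (208 ± 16.9), while PRKACB had 178 ± 21.2 and PRKAR2B 136 ± 8.84. There, the libraries of AKAP12 (189.5 to 229.7) overlapped those of PRKAR1A (189.3 to 221.5) and of PRKACB (156.3 to 198.7), so the order of these genes at ranks 3 to 5 is not fixed. PRKAR1A and PRKACB also overlapped, as did PDE3A and PDE4B. The other members kept their order. Apart from AKAP12, 0 of 9 members were called by edgeR, DESeq2 or limma-voom, beside 6.52% of all genes tested. At an unadjusted p below 0.05 there were 2, or 22.2% beside 32.1%, and at an adjusted p below 0.05 there was 1, PRKAR2B, or 11.1% beside 19.8% of all genes. The C3 libraries lay apart from the control libraries in 2 of the 9, 1 above (PRKAR2B) and 1 below (PRKAR1A), or 22.2% beside 34.4%. Their median log2 fold change was -0.0068, with 4 positive and 5 negative values, and it was 0.07 with library size alone. None of these shares is above that of all genes tested.

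Adenylyl cyclases make cAMP, and 6 of 10 cyclase genes were tested. By edgeR, DESeq2 and limma-voom 0 were called, with 3 at an unadjusted p below 0.05 (50% beside 32.1% of all genes) and a median log2 fold change of 0.13. ADCY7 had the highest level per kb of exon, 190 in control and 223 in C3 libraries (log2 fold change 0.23, adjusted p = 0.0441), with overlapping groups, and 41.8% of its exon bases overlap genes of the other strand. That fold change was 0.14 without control replicate 3, 0.14 without C3 replicate 1 and 0.05 without both, with adjusted p over the alternatives between 0.00332 and 0.527. G alpha subunits pass receptor signals to the cyclases, those of the Gs type raising and those of the Gi type lowering their activity. All 6 were tested, and 1 was called higher and 0 lower, by DESeq2 and limma-voom 1 as well (16.7% by edgeR, beside 6.52% of all genes), with a median of 0.16. At an unadjusted p below 0.05 there were 4 (66.7% beside 32.1%). A list of 6 genes is small, and the difference from all genes was not tested. That gene was GNAI1 (ENSG00000127955), a Gi type, with 516, 506 and 519 normalized counts in control and 739, 748 and 724 in C3 libraries. Its libraries were tight within each group and far apart between them. GNAI1 rose from 514 ± 7.11 to 737 ± 12.4 (SD, n = 3), a log2 fold change of 0.52 ± 0.074 (SE, adjusted p = 1.5e-05, edgeR), called in 15 of 15 settings (0.51 to 0.59). GNAI2, another Gi type and the highest of the list per kb of exon (1097 in control and 955 in C3 libraries), had a log2 fold change of -0.20 (adjusted p = 0.0406) with overlapping groups, and -0.32 without both libraries that stood apart. It was -0.13 with library size alone, and the adjusted p over the alternatives was between 3.6e-10 and 0.202. By normalized count GNAS, named after its values were seen, was above GNAI2, with means of 21120 and 8123 in control libraries. Its merged exons hold 22221 bases against 7405 for GNAI2, which lowers its level per kb. GNAS was lower in each C3 library, with a log2 fold change of -0.12 (adjusted p = 0.202, edgeR), and was not called.

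Of 16 receptor genes that raise or lower cAMP, 10 were tested and 0 called by edgeR, DESeq2 or limma-voom, with 3 at an unadjusted p below 0.05 (30% beside 32.1% of all genes) and a median log2 fold change of 0.062. PTGER3, a prostaglandin E receptor of the Gi type, had the highest level per kb of exon, 316 in control and 317 in C3 libraries. Its log2 fold change of 0.0027 (adjusted p = 0.981) changed sign with RLE factors. The short-chain fatty acid receptor genes FFAR2 and FFAR3, named after their values were seen, were too low to test. FFAR2 had 9, 13 and 7 raw counts in control and 6, 7 and 12 in C3 libraries. FFAR3 had 0 in each control library and 1 in each C3 library, so no difference was detectable for either gene at this depth.

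Other proteins that bind or export cAMP were covered by 6 genes, of which 5 were tested, 1 called higher and 0 lower by edgeR, and 1 each by DESeq2 and limma-voom (20% by edgeR, beside 6.52% of all genes), with 1 at an unadjusted p below 0.05 and a median of 0.033. BVES (ENSG00000112276) encodes a Popeye protein, a membrane protein that binds cAMP. It had 26.5, 19.1 and 31.0 normalized counts in control and 85.4, 81.3 and 58.8 in C3 libraries. The counts are low, yet each C3 library was above each control library. BVES rose from 25.5 ± 6.03 to 75.2 ± 14.3 (SD, n = 3), a log2 fold change of 1.55 ± 0.24 (SE, adjusted p = 5.7e-05, edgeR) or 2.92-fold, called in 15 of 15 settings (1.38 to 1.71). Its raw counts were 27, 18 and 26 in control and 75, 85 and 75 in C3 libraries. In the setting with a mean count of 50 or more, BVES therefore passed only through the C3 group, and that setting adds no support. The other strand covers 1.40% of its exon bases. ABCC4, the cAMP exporter and the highest gene of the list per kb of exon (532 in control and 492 in C3 libraries), had a log2 fold change of -0.11 (adjusted p = 0.199), which was -0.04 with library size alone. In the cGMP arm, 6 of 7 genes were tested and 0 called by edgeR, DESeq2 or limma-voom, with 2 at an unadjusted p below 0.05 (33.3% beside 32.1% of all genes) and a median of -0.067, which was 0.01 with library size alone. GUCY1B1, a subunit of soluble guanylyl cyclase with the highest level per kb of exon (133 in control and 132 in C3 libraries), had a log2 fold change of -0.014 (adjusted p = 0.926), which turned positive with library size alone.

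CREB factors and their CRTC coactivators carry the cAMP response to genes. Of 6, all tested, 0 were called higher and 1 lower by edgeR, and DESeq2 and limma-voom called 1 each (16.7% by edgeR, beside 6.52% of all genes), with 2 at an unadjusted p below 0.05 (33.3% beside 32.1%) and a median of -0.073, which was 0.0025 with library size alone. CRTC1 (ENSG00000105662) had 998, 970 and 903 normalized counts in control and 719, 586 and 712 in C3 libraries. The C3 libraries were all below the control libraries, with C3 replicate 2 the lowest. CRTC1 fell from 957 ± 49.1 to 672 ± 75.1 (SD, n = 3), a log2 fold change of -0.51 ± 0.080 (SE, adjusted p = 5.2e-05, edgeR), called in 15 of 15 settings (-0.59 to -0.42). ATF1 had the highest level per kb of exon, 162 in control and 161 in C3 libraries, with a log2 fold change of 0.0015 (adjusted p = 0.993) that changed sign with RLE factors. Among 11 genes commonly induced through CREB, 9 were tested and 1 was called higher and 0 lower by edgeR, with 1 each by DESeq2 and limma-voom (11.1% by edgeR, beside 6.52% of all genes), 3 at an unadjusted p below 0.05 (33.3% beside 32.1%) and a median of 0.36 beside 0.0021. NR4A1 (ENSG00000123358), an orphan nuclear receptor, had 157, 147 and 143 in control and 224, 231 and 212.5 in C3 libraries. Again no C3 library reached down to the control range. NR4A1 rose from 149 ± 6.90 to 222.5 ± 9.19 (SD, n = 3), a log2 fold change of 0.57 ± 0.12 (SE, adjusted p = 0.00113, edgeR), called in 15 of 15 settings (0.54 to 0.65), and 10.3% of its exon bases overlap genes of the other strand. JUNB, the highest of these per kb of exon (738.5 in control and 950 in C3 libraries), had a log2 fold change of 0.36 (adjusted p = 2.1e-04, edgeR), under the fold gate. It passed both gates without control replicate 3 (0.39), without C3 replicate 2 (0.39) and with library size alone (0.44). Over the alternatives its adjusted p was 4.3e-08 to 0.00328, and 14.2% of its exon bases overlap genes of the other strand.

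PKA substrates of platelets were covered by 11 genes, with 10 tested, 0 called by edgeR and DESeq2 and 1 by limma-voom, 4 at an unadjusted p below 0.05 (40% beside 32.1% of all genes) and a median of 0.027. The gene called by limma-voom was FLNA, filamin A, named after its values were seen, with a log2 fold change of 0.37 by edgeR (adjusted p = 0.00124). VASP, an actin regulator that PKA phosphorylates, had the highest level per kb of exon, 2463 in control and 2736 in C3 libraries (log2 fold change 0.15, adjusted p = 0.0877). Of 9 genes whose proteins bind AKAP12, all tested, 2 were called higher and 0 lower by edgeR (22.2% beside 6.52% of all genes) and 1 each by DESeq2 and limma-voom, with 4 at an unadjusted p below 0.05 (44.4% beside 32.1%) and a median of 0.066. CCND1 (ENSG00000110092), the cyclin D1 gene, had 1875, 1691 and 1650 normalized counts in control and 2677, 2607 and 2645 in C3 libraries. The groups were far apart, with the C3 libraries close together. CCND1 rose from 1739 ± 120 to 2643 ± 35.0 (SD, n = 3), a log2 fold change of 0.60 ± 0.064 (SE, adjusted p = 2.1e-07, edgeR), called in 15 of 15 settings (0.56 to 0.68), and 10.4% of its exon bases overlap genes of the other strand. SRC, the gene of a tyrosine kinase, had 493, 433 and 430 in control and 627, 574 and 567 in C3 libraries. Its C3 libraries were all above its control libraries. The log2 fold change of 0.3786 ± 0.084 (SE, adjusted p = 0.00196, edgeR) was just inside the fold gate, a log2 value of 0.3785. It passed both gates in 7 of 15 settings and missed at least 1 of them by DESeq2 (0.372, and 0.376 after the count filter), by limma-voom (0.375), with RLE factors (0.375), without control replicate 2 (0.35), without control replicate 3 (0.34), without C3 replicate 1 (0.33) and without both libraries that stood apart (0.30), with adjusted p between 1.2e-04 and 0.0199 over all settings. CALM3, a calmodulin gene with the highest level per kb of exon here (4186 in control and 3917 in C3 libraries), had a log2 fold change of -0.096 (adjusted p = 0.363) with overlapping groups. It was -0.16 without C3 replicate 1 and -0.20 without both libraries that stood apart. Nearer to no change, it was -0.05 without C3 replicate 2 and -0.02 with library size alone. The adjusted p of CALM3 over the alternatives was between 2.0e-05 and 0.812.

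**Figure D4:**
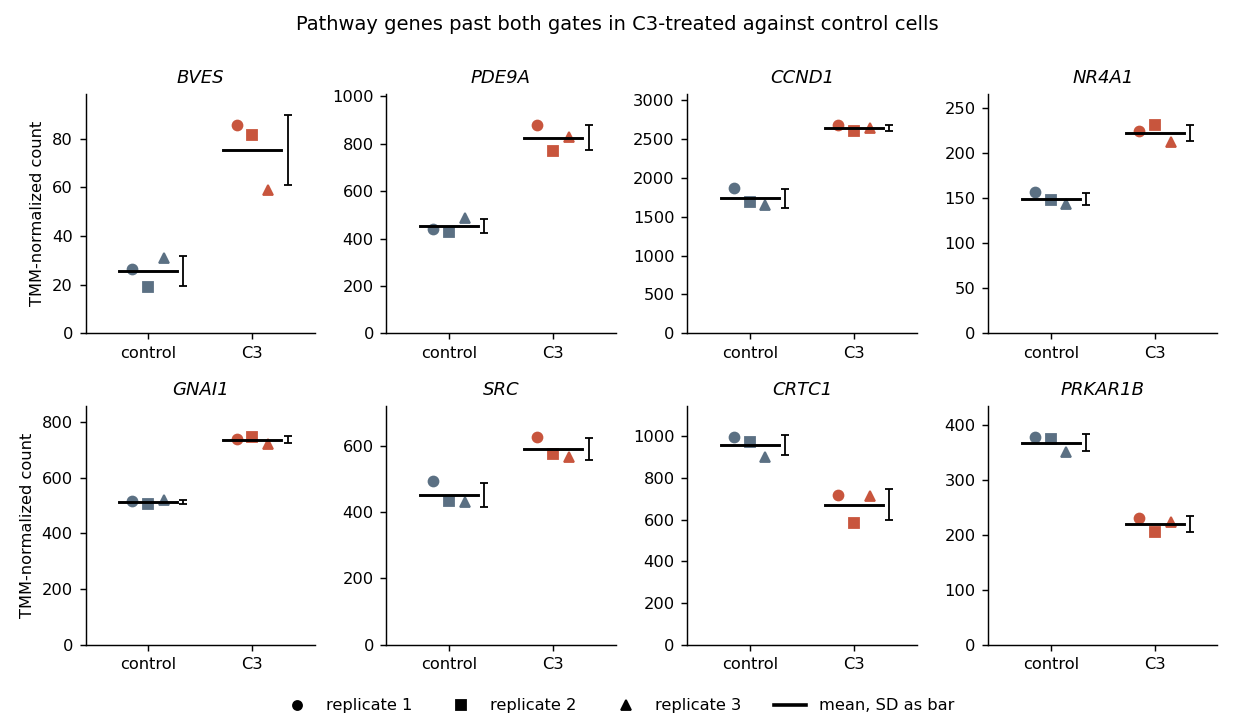
Normalized counts (vertical axes) of the 8 genes of the pathway lists called by edgeR, in the control and C3 groups, with 1 point per library, a line for the group mean and a bar for the SD. PRKAR1B and CRTC1 are lower in each C3 library and the other 6 higher, with PDE9A going from 429.5 to 485 in control to 770 to 877.5 in C3 libraries.

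Over the 14 lists, 113 genes other than AKAP12 were tested, 25 were not and 5 of those were at 0 in every library. By edgeR, 6 were called higher and 2 lower, or 7.08% either way beside 6.52% of all genes tested. DESeq2 called 7 and limma-voom 8, beside 752 and 961 of all genes. With library size alone, and also without a count filter, 10 were called higher. Over all genes, 1025 and 930 were called higher in these settings, against 761 in the main fit. At an adjusted p below 0.05 and any fold, 19 were higher and 9 lower, or 24.8% beside 19.8%. The C3 libraries were all above the control libraries in 30 genes and all below in 17, or 41.6% beside 34.4%. PDE2A, which passed the count filter only through the C3 group, is counted in these 30 and in the share of phosphodiesterases below. By list, the share with libraries apart was 75% for regulatory subunits, 66.7% for G alpha subunits, 60% for receptors and for substrates, 50% for the cGMP arm and 40% for other effectors. It was 33.3% for catalytic subunits, inhibitors, phosphodiesterases, cyclases, CREB factors, CREB targets and AKAP12 partners, and 27.8% for anchors without AKAP12. The median log2 fold change was 0.067 beside 0.0021 over all genes, and 0.14 beside 0.08 with library size alone. The differences from all genes were not tested, and nothing particular to the lists is read from them.

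**Figure D5:**
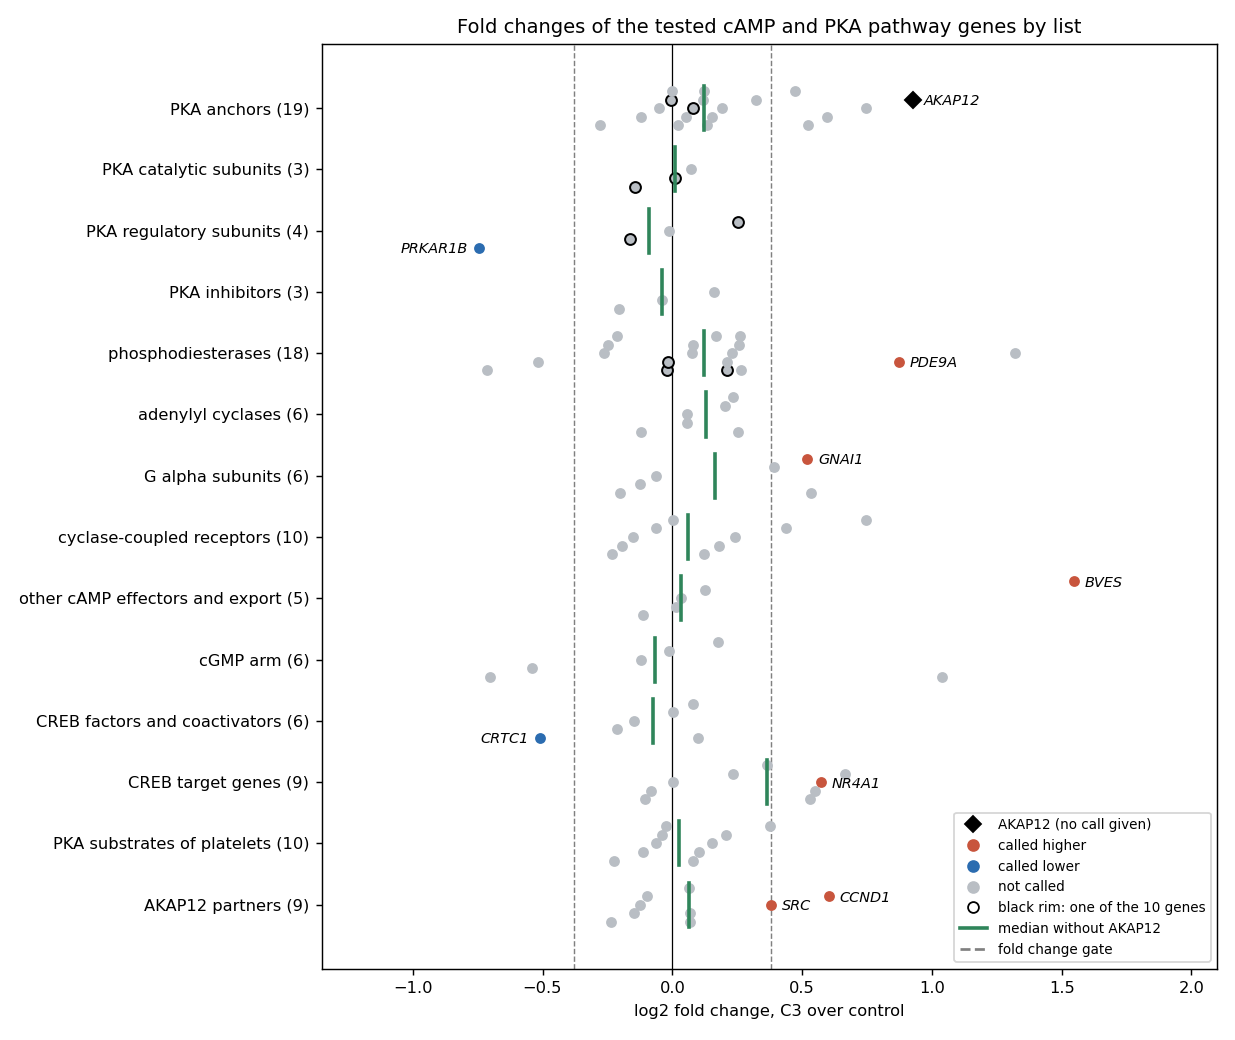
Log2 fold change of C3 over control (horizontal axis) for the tested genes of each of the 14 lists (vertical axis), with 1 point per gene, called genes coloured, green lines at list medians without AKAP12 and dashed lines at the fold gate. The called genes run from -0.74 (PRKAR1B) to 1.55 (BVES), with AKAP12 at 0.93 given no call.

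Markers of other cell types were also summed in each library. Of 3 monocyte markers, 2 were tested and 1 was called lower, LYZ (log2 fold change -0.51, adjusted p = 4.7e-05, edgeR), the most abundant of them. Their summed normalized counts were 698, 689 and 718 in control and 528, 535 and 547 in C3 libraries, lower in each C3 library through LYZ alone. The other tested marker, CSF1R, had a log2 fold change of 0.26 (adjusted p = 0.277) and overlapping groups, CD14 was near 0, and 34.7% of the exon bases of LYZ overlap genes of the other strand. Of 4 fibroblast markers, 2 were tested. COL1A1 had raw counts of 6, 5 and 2 in control and 12, 11 and 34 in C3 libraries and passed the count filter only through the C3 group, where it is high, so its call is given no weight. The fibroblast sums were 20.6, 19.1 and 13.1 in control and 39.8, 36.4 and 43.1 in C3 libraries, with DCN the most abundant. Of 4 endothelial markers, all tested, TEK was called higher (0.59, adjusted p = 2.4e-04), with overlapping sums of 1036, 1106 and 950.5 in control and 1214, 1089 and 1039 in C3 libraries and PECAM1 the most abundant. Of the other 3, none was called by edgeR, with log2 fold changes of 1.006 for CDH5 (adjusted p = 0.0315), -0.74 for VWF (adjusted p = 0.0629) and -0.07 for PECAM1 (adjusted p = 0.597). The lists of T cell, B cell and epithelial markers, of 3 genes each, had 2, 1 and 2 tested genes. By edgeR 0 of these were called, and the sums of the groups overlapped. The T cell sums were 32.3 to 49.0 in control and 35.3 to 50.7 in C3 libraries (most abundant CD2), the B cell sums 54.1 to 76.4 and 55.7 to 77.4 (CD79A, with MS4A1 at 0), and the epithelial sums 661 to 725 and 656 to 679.5 (KRT8, with KRT19 at 0). The part of the monocyte, fibroblast and endothelial markers in the results above was not tested.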

How the data were processed

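RNA of 6 Meg-01 libraries, 3 control and 3 C3, was compared. The deposited values are raw read counts per gene for 58735 Ensembl genes, which the authors made with fastp, STAR 2.6.1d (GRCh38) and featureCounts 1.5.0-p3, as the submitters' processing notes give them. The sources used here give neither strand setting nor annotation release. Identifiers were joined to GENCODE release 44 (58207 matched), which gave coordinates, merged exon lengths and exon overlaps. Levels per kb divide by the merged exons of all annotated transcripts of a gene. Orders and shares between genes therefore depend on that annotation. Genes that reached 10 counts in 3 or more libraries (15078) were scaled with TMM factors and tested with edgeR 4.0.16 (quasi-likelihood test, R 4.3.3) without a replicate block, with Benjamini-Hochberg adjustment over all genes tested. A gene was called at an adjusted p below 0.01 and a fold change above 1.3. Standard errors are the log2 fold change over the square root of the F statistic. The coefficient of variation from the common dispersion was 6.21%. A count of 0 allows up to 3 counts. Shares were tested by exact permutation (scipy 1.17.1). The members and lists were chosen with earlier results of these data known.

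Genes named with values are the members, each called gene of the lists, the gene of each list with the highest level per kb of exon, the genes within 500 kb of AKAP12 and the 5 genes most like it. Other names were chosen after their values were seen. Alternatives were DESeq2 1.42.0, limma-voom (limma 3.58.1), library size alone, RLE factors, a filter on mean count (50 or more) or none, a replicate block, each library left out, an adjusted p below 0.05 without a fold gate, and raw counts for the shares. Chosen after seeing the data were DESeq2 after the count filter, leaving out both libraries that stood apart, and leaving out PDE6D, PDE6G and PDE6H. The methods were tested on simulated data.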

Additional observations from a re-analysis of the deposited data

How the results depend on the processing

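AKAP12 kept its direction in every alternative run, with log2 fold changes of 0.86 to 1.00. Of 435 alternative values of 29 other named genes over 15 settings, 389 had the same direction and call, 8 no longer passed (all SRC), 3 newly passed (all JUNB) and 35 changed sign, none of them in a called gene. The cause of these changes was not tested. The RII share, the ratio of regulatory to catalytic subunits and the PDE4 share kept their sign throughout.

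An adjusted p below 0.05 without a fold gate gave 1658 genes higher and 1323 lower over all genes, 19 and 9 in the lists and 1 higher among the members. This setting relaxes the p gate and drops the fold gate together, and their parts were not told apart. With library size alone, 1025 of all genes were higher and 100 lower, 10 list genes were higher, and the median of all genes moved by 0.0744. Without a count filter, 10 list genes and 930 of all genes were higher. All genes lower numbered 412 without both libraries that stood apart, chosen after seeing the data, and 136 to 347 with each library left out, fewest without C3 replicate 3 and most without C3 replicate 1.

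Log2 values near 0 changed sign. With library size alone they were 0.0682 (AKAP13), 0.0587 (PDE4B), 0.0557 (PDE4D), 0.0221 (RAB32) and 0.0606 (GUCY1B1). By DESeq2 they were -0.0000 (PRKACA), -0.0058 (PTGER3) and -0.0081 (ATF1), after the count filter -0.0008 (PTGER3) and -0.0027 (ATF1), and with RLE factors -0.0008 (PTGER3) and -0.0019 (ATF1). AKAP13 was 0.0038 without a count filter and 0.0067 at a mean count of at least 50. Without both libraries that stood apart, values were -0.0161 (PRKACA), 0.0474 (PDE4B), 0.0260 (PDE4D) and 0.0209 (GUCY1B1). With each library left out, ranges were -0.0405 to 0.0316 (AKAP13), -0.0278 to 0.0507 (PRKACA), -0.130 to 0.0601 (PDE4B), -0.0449 to 0.0226 (PDE4D), -0.0169 to 0.0203 (PTGER3), -0.0441 to 0.0039 (GUCY1B1) and -0.0572 to 0.0471 (ATF1).

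The replicate numbers do not pair the libraries: deviations from the group means of libraries with the same number correlated at 0.021, -0.047 and 0.030, and not every library correlated best with its own number. With the number as a replicate block, 909 genes were called higher and 268 lower, 10 list genes were higher and ATF1 was at -0.0014.

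Depth and design limit these values. Genes with few counts, such as BVES, FFAR2 and FFAR3, carry large counting error. The spread between libraries of 1 cell line, named technical replicates in a legend, need not cover independent cultures. Where exons of other genes overlap, counts are uncertain, as the strand setting is unknown. Transcript counts say nothing of protein, kinase activity or cAMP.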
